A study of Homo sapiens with 8 samples.

Results

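The 8 genes described here write, maintain or remove DNA methylation, or feed its removal, and were measured in MOLM-13 cells, a human acute myeloid leukemia (AML) line of monocytic type. They are the DNA methyltransferases DNMT1, DNMT3A and DNMT3B, the DNMT1 partner UHRF1, the 5-methylcytosine oxidases TET1, TET2 and TET3, and IDH1. Members were taken by name, as every transcript that GENCODE version 44 assigns to one of these genes, and made up 8 of the 62639 genes covered by the table of counts. The cells carried a doxycycline (dox) inducible shRNA, either against the splicing factor PTBP1 (shPTBP1) or scrambled (shControl, called shSCR in the study), and RNA was taken after 9 days of dox. There were 4 biological replicates per group, and both groups also carried mCherry from the same vector. Because 1 shRNA stands for each condition, an effect of the sequence itself and of the loss of PTBP1 cannot be told apart.

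DNMT3A and DNMT3B place methyl groups on cytosines of CpG dinucleotides that carried none before. DNMT1 copies the pattern onto the new strand behind the replication fork, and is brought there by UHRF1, which recognizes CpG sites methylated on one strand only. The TET enzymes oxidize 5-methylcytosine, the first step of its removal, and need 2-oxoglutarate, which IDH1 makes from isocitrate in the cytosol. DNMT3A, TET2 and IDH1 are among the recurrently mutated genes of AML, and the mutant forms of IDH1 make 2-hydroxyglutarate, which inhibits the TET enzymes.

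Nanopore cDNA sequencing gave 1528449 to 1613342 counts per library, on 12322 to 12589 detected genes. PTBP1 itself fell from 64 to 90 counts in the shControl libraries to 10 to 23 in the shPTBP1 libraries (log2 fold change -2.26 ± 0.22 SE, edgeR adjusted p = 7.18e-05), and PTBP2, its neuronal paralog, rose (log2 fold change 6.36, edgeR adjusted p = 2.14e-10). Of 16 markers of a monocytic AML line 15 were detected, with CSF2RA at 0 in every library and SPI1, which encodes the myeloid factor PU.1, at 1 count in all. CSF2RA has annotated copies on chromosomes X and Y. Whether the study's filter on mapping quality removed its reads was not tested, so its 0 need not mean absence. The summed level of the 16 was 2406 to 2724 CPM (counts per 1000000) after shPTBP1 and 2530 to 2833 in shControl. LAPTM5, a lysosomal membrane protein and the most abundant of them, had a mean of 1324 against 1439 CPM in this sum. Of these markers 11 were tested and 2 were called lower, against 3.19% of all genes tested. They were CD4 (log2 fold change -0.47, edgeR adjusted p = 0.000597) and CSF1R, the receptor of the monocyte growth factor M-CSF (log2 fold change -0.97, edgeR adjusted p = 0.0375). The log2 fold changes of the 11 were negative in 6 and positive in 5, with a median of -0.09. Of 18 markers of T, B, erythroid, epithelial, stromal and endothelial cells 8 were at 0, and their sum was 13.3 to 19.2 against 15.3 to 20.3 CPM.

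None of the 8 genes was called changed after PTBP1 KD. DNMT1 and TET3 had lower mean levels, TET2 and IDH1 higher ones, and UHRF1 nearly the same one, but the libraries of the groups overlapped for each gene. Calls required a p under 0.05 after Benjamini-Hochberg adjustment over 7597 genes, those that passed the filter on low counts of edgeR's quasi-likelihood test. That filter kept 5 of the 8 (DNMT1, TET2, TET3, UHRF1 and IDH1). Of these 5, 0 were called by edgeR, 0 had an unadjusted p under 0.05, and 0 had groups that did not overlap. Over all genes tested 5.54% were called, 3.19% lower and 2.36% higher, 19.2% had an unadjusted p under 0.05, and 12.7% had groups that did not overlap. DESeq2, limma-voom and limma-trend also called 0 of the 8. In RNA from a whole culture, fewer cells with a transcript and less of it per cell cannot be told apart.

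The genes were expressed at very unequal levels. Divided by the length of the isoforms counted, the mean level over the 8 libraries was 225 CPM per kb for IDH1 and 19.7 for DNMT1, and both were separated from the next gene in every library. Below them the levels per kb were 2.44 for TET3, 2.04 for UHRF1, 0.921 for TET2, 0.478 for TET1, 0.389 for DNMT3A and 0.239 for DNMT3B. From TET3 downward each gene overlapped with its neighbour in this order. Without the division by length, TET3 (18.4 to 52.2 CPM) lay above UHRF1 (4.43 to 10.5 CPM) in every library. Whether that division suits long-read counts was not tested. Of the methyltransferases, the maintenance enzyme DNMT1 was thus read at a level per kb above both de novo enzymes in all 8 libraries.

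DNMT1 (ENSG00000130816, chr19:10133342-10231286, minus strand, hg38) had 101 to 167 counts per library. Its level was 106, 79.3, 72.4 and 64.7 CPM in shPTBP1 replicates 1 to 4 and 103, 106, 90.7 and 87.3 CPM in shControl replicates 1 to 4. Replicates 2 to 4 of shPTBP1 lay below all shControl libraries, and shPTBP1 replicate 1 lay among the highest. The mean was 80.5 ± 17.8 (SD, n = 4) against 96.7 ± 9.18 CPM, a log2 fold change of -0.26 ± 0.14 (SE; 95% interval -0.56 to 0.03; edgeR adjusted p = 0.311; exact two-sided permutation test p = 0.171). As a change in percent, that interval runs from -32.0% to 1.91%. Leaving out each library in turn gave log2 fold changes of -0.42 to -0.17, with edgeR adjusted p from 0.0552 to 0.596. The values of -0.42 and 0.0552 came from the fit without shPTBP1 replicate 1.

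UHRF1 (ENSG00000276043, chr19:4903080-4962154, plus strand) was read at 7, 14, 16 and 9 counts in shPTBP1 replicates 1 to 4. In shControl it had 14, 14, 9 and 11 counts. Both the lowest and the highest library belonged to shPTBP1. Its mean was 7.49 ± 2.87 against 7.64 ± 1.36 CPM (SD, n = 4 each; log2 fold change -0.04 ± 0.33 SE, 95% interval -0.75 to 0.67, edgeR adjusted p = 0.971).

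Transcripts of DNMT1 and UHRF1 are known to rise in S phase, so the genes of DNA replication were set beside them. Of 24 such genes 22 were tested and 1 was called, CCNE2, which encodes the S-phase cyclin E2 (log2 fold change 0.43, edgeR adjusted p = 0.00926), against 5.54% of all genes tested called in either direction and 2.36% called higher. Their summed level was 3376 to 3427 CPM after shPTBP1 and 2889 to 3321 CPM in shControl, without overlap. The most abundant of them, TYMS (thymidylate synthase), was at 833 ± 96.7 against 715 ± 130.0 CPM (SD, n = 4 each), with overlapping groups and an adjusted p of 0.332 in edgeR. The median log2 fold change of the 22 was 0.08, against 0.00 over all genes tested. The mean of DNMT1 was lower after shPTBP1 while this sum was higher, and the part of the cell cycle in the level of DNMT1 was not tested.

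DNMT3A (ENSG00000119772, chr2:25227855-25342590, minus strand) had 4, 1, 0 and 1 counts after shPTBP1 and 4, 4, 1 and 3 in shControl. DNMT3B (ENSG00000088305, chr20:32762385-32809359, plus strand) had 1 count in each shPTBP1 library and 1, 1, 2 and 4 in shControl. Neither gene passed the filter, and the highest library of DNMT3A in each group held 4 counts. Summed over libraries, 6 counts of DNMT3A stood against 12 and 4 of DNMT3B against 8. Relative to all counts the ratio was 0.507 for both, with a 95% counting interval of 0.156 to 1.46 for DNMT3A and of 0.112 to 1.89 for DNMT3B. A change of 2-fold in either gene was not detectable at this depth.

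TET1 (ENSG00000138336, chr10:68560337-68694487, plus strand) had 7, 8, 8 and 5 counts after shPTBP1 and 6, 7, 8 and 8 in shControl, and failed the filter. The groups covered nearly the same range, and the ratio of the pooled counts (28 against 29) was 0.978, with a counting interval of 0.561 to 1.70. TET2 (ENSG00000168769, chr4:105145875-105279816, plus strand), the family member most often mutated in AML, had 11, 12, 12 and 5 counts after shPTBP1 and 13, 7, 3 and 5 in shControl. The highest library and the lowest were both shControl. The log2 fold change of TET2 was 0.53 ± 0.44 (SE; 95% interval -0.42 to 1.48; edgeR adjusted p = 0.565), or -25.1% to 179% as a change in percent.

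TET3 (ENSG00000187605, chr2:73984910-74108176, plus strand) was the most abundant oxidase. Its level was 39.9, 21.8, 18.4 and 22.4 CPM in shPTBP1 replicates 1 to 4 and 52.2, 28.7, 27.3 and 25.0 CPM in shControl replicates 1 to 4. In each group replicate 1 stood well above the others, and replicates 2 to 4 of shPTBP1 lay below all 4 shControl libraries. The mean was 25.6 ± 9.65 against 33.3 ± 12.7 CPM (SD, n = 4 each; log2 fold change -0.38 ± 0.27 SE, 95% interval -0.97 to 0.21, edgeR adjusted p = 0.500). Without shPTBP1 replicate 1 the log2 fold change was -0.67, and without shControl replicate 1 it was -0.07. All 369 counts of TET3 fell on 1 isoform of 12060 bases, and the replicate 1 libraries also held the largest shares of counts on transcripts over 5000 bases. These shares were 4.75% in shControl replicate 1, 4.28% in shPTBP1 replicate 1 and 4.02 to 4.25% in the other libraries. On transcripts over 9000 bases only shControl replicate 1 stood apart, at 0.894%. There shPTBP1 replicate 1 held 0.721%, within the 0.683 to 0.747% of the other libraries. The part of transcript length in the levels of TET3 and DNMT1 was not tested.

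IDH1 (ENSG00000138413, chr2:208236229-208266074, minus strand) had the smallest standard error of the 5 genes tested. Its level was 504, 521, 581 and 542 CPM in shPTBP1 replicates 1 to 4 and 455, 613, 501 and 457 CPM in shControl replicates 1 to 4. The highest library was shControl replicate 2, and the other 3 shControl libraries lay below every shPTBP1 library. The mean was 537 ± 33.5 against 507 ± 73.7 CPM (SD, n = 4 each), a log2 fold change of 0.08 ± 0.09 (SE; 95% interval -0.11 to 0.28; edgeR adjusted p = 0.676). As a change in percent, the interval runs from -7.38% to 21.3%.

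The other genes of the pathway were taken from 6 lists of 51 genes in all, of which 32 passed the filter. Of the 32, 0 were called by edgeR and 0 by any other tool or setting tried, and 7 (21.9%) had an unadjusted p under 0.05, against 19.2% of all genes tested. Their log2 fold changes were negative in 18 and positive in 14, with a median of -0.03 against 0.00 over all genes. Groups did not overlap for 5 of the 32 (OGT, OGDH, MAT2A, AHCY and MTRR, named after their values were seen), against 12.7% of all genes tested. All 5 were higher after shPTBP1, and none was called.

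**Figure D1:**
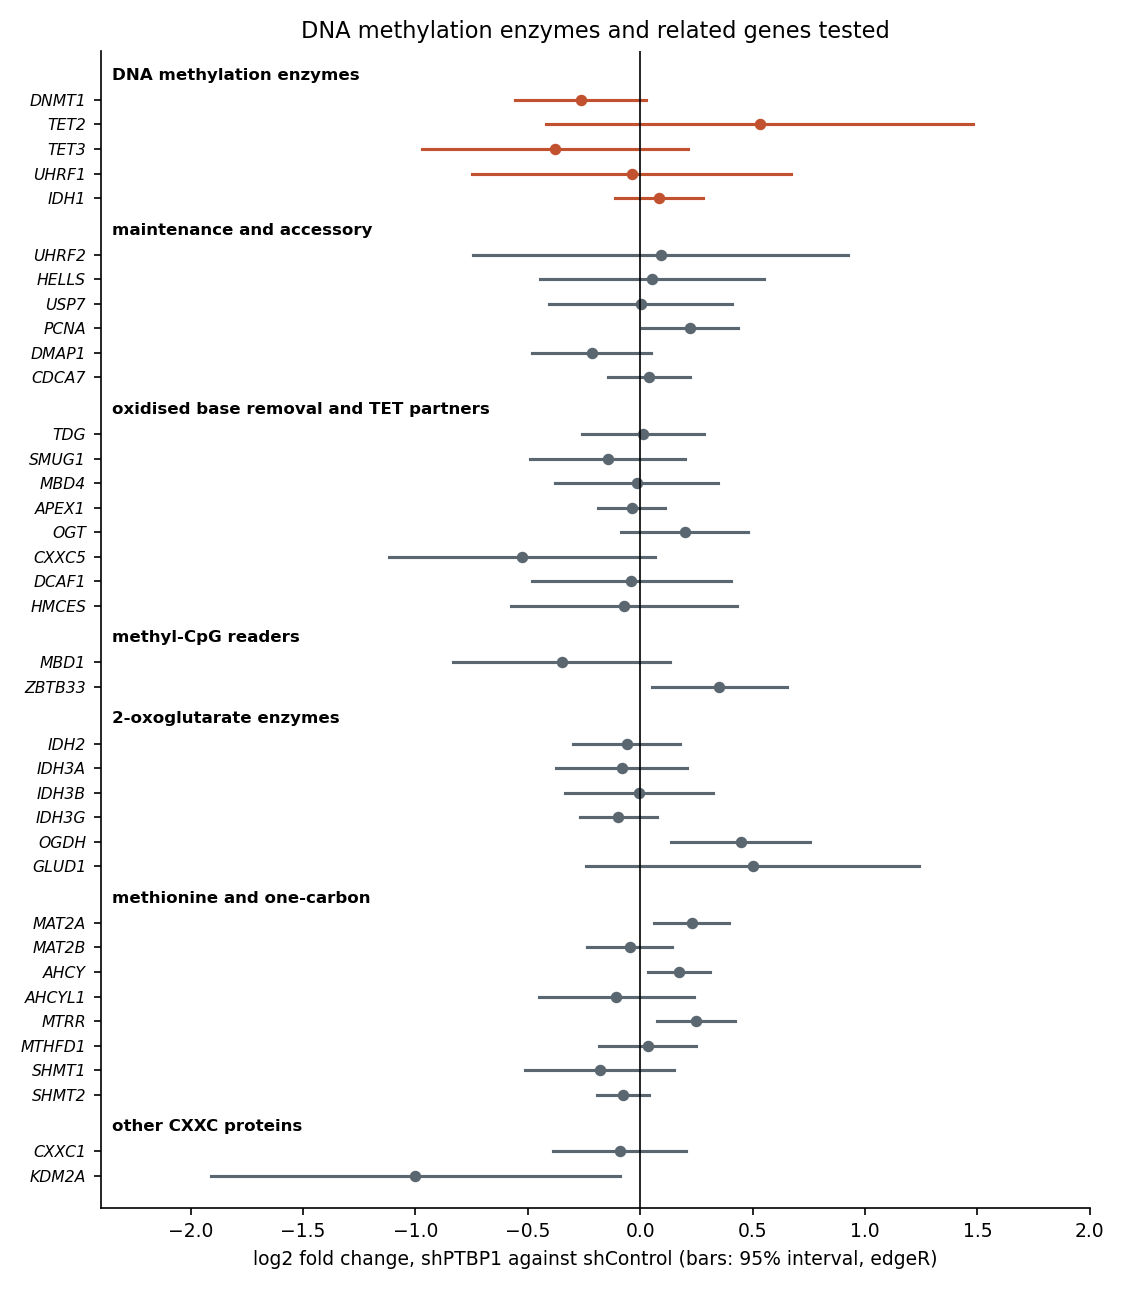
Log2 fold change of shPTBP1 against shControl (horizontal axis) with its 95% interval from edgeR, for the 5 methylation enzymes tested (orange) and the 32 tested genes of the 6 lists (grey). The intervals of all 5 enzymes include 0, and no gene shown passed an adjusted p of 0.05.

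Of the partners in maintenance, 6 of 8 were tested, and the most abundant was CDCA7, which brings the remodeler HELLS to chromatin, at 185 ± 20.6 against 180 ± 8.38 CPM (SD, n = 4 each; log2 fold change 0.04, edgeR adjusted p = 0.859). Of the genes that excise oxidized bases or bind TET proteins 8 of 10 were tested, with APEX1, the endonuclease of base excision repair, the most abundant (1110 ± 68.9 against 1139 ± 93.3 CPM, log2 fold change -0.04, edgeR adjusted p = 0.830). OGT, the glycosyltransferase that binds TET proteins, was between 35.9 and 39.0 CPM after shPTBP1 and between 26.7 and 35.6 in shControl, with an adjusted p of 0.449 in edgeR. Only 2 of 7 readers of methylated CpG were deep enough, of which ZBTB33 (Kaiso) had 59.1 ± 9.10 against 46.4 ± 6.92 CPM (log2 fold change 0.35, edgeR adjusted p = 0.184). The other reader tested had a log2 fold change of -0.35, and was not called either.

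Enzymes that make or use 2-oxoglutarate were tested for 6 of 8. IDH3G, a subunit of the mitochondrial NAD-dependent isocitrate dehydrogenase, was the most abundant at 131 ± 11.0 against 140 ± 5.11 CPM (log2 fold change -0.10, edgeR adjusted p = 0.562). OGDH, which consumes 2-oxoglutarate in the citric acid cycle, was 38.6, 32.4, 39.5 and 39.7 CPM in shPTBP1 replicates 1 to 4 and 24.0, 31.2, 30.0 and 25.0 CPM in shControl replicates 1 to 4. Its lowest shPTBP1 library was just above its highest shControl library (log2 fold change 0.45 ± 0.14 SE, edgeR adjusted p = 0.0927).

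In the methionine and one-carbon list, which supplies S-adenosylmethionine, the methyl donor of the DNMTs, 8 of 12 genes were tested. The log2 fold changes of these 8 were negative in 4 and positive in 4, with a median of -0.006. MAT2A makes S-adenosylmethionine, and was 340 to 352 CPM after shPTBP1 against 264 to 325 CPM in shControl (log2 fold change 0.23, edgeR adjusted p = 0.110). AHCY removes the S-adenosylhomocysteine that methylation leaves behind, and was 554 to 586 against 456 to 545 CPM (log2 fold change 0.17, edgeR adjusted p = 0.145). MTRR, which reactivates methionine synthase, was 216 to 242 against 168 to 215 CPM (log2 fold change 0.25, edgeR adjusted p = 0.10). SHMT2, the mitochondrial serine hydroxymethyltransferase, was the most abundant of the list and had a log2 fold change of -0.08 (edgeR adjusted p = 0.477). Of the 6 other proteins with a CXXC domain, the fold that binds unmethylated CpG, 2 were tested, CXXC1 at a log2 fold change of -0.09 (edgeR adjusted p = 0.787) and KDM2A at -1.0 from 25 against 51 counts (edgeR adjusted p = 0.215).

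Long reads place a count on an isoform as well as on a gene. For DNMT1 and IDH1, 6 isoforms could be tested for usage with edgeR's diffSpliceDGE, and 0 were called (adjusted p under 0.05 and a change of share of at least 10 percentage points), against 1.12% of the 5464 isoforms tested in all. With limma's diffSplice and under every other setting tried, 6 isoforms of the 8 genes were tested and 0 were called. A count on an isoform is the assignment StringTie made, and the read behind it need not cover the whole isoform.

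**Figure D2:**
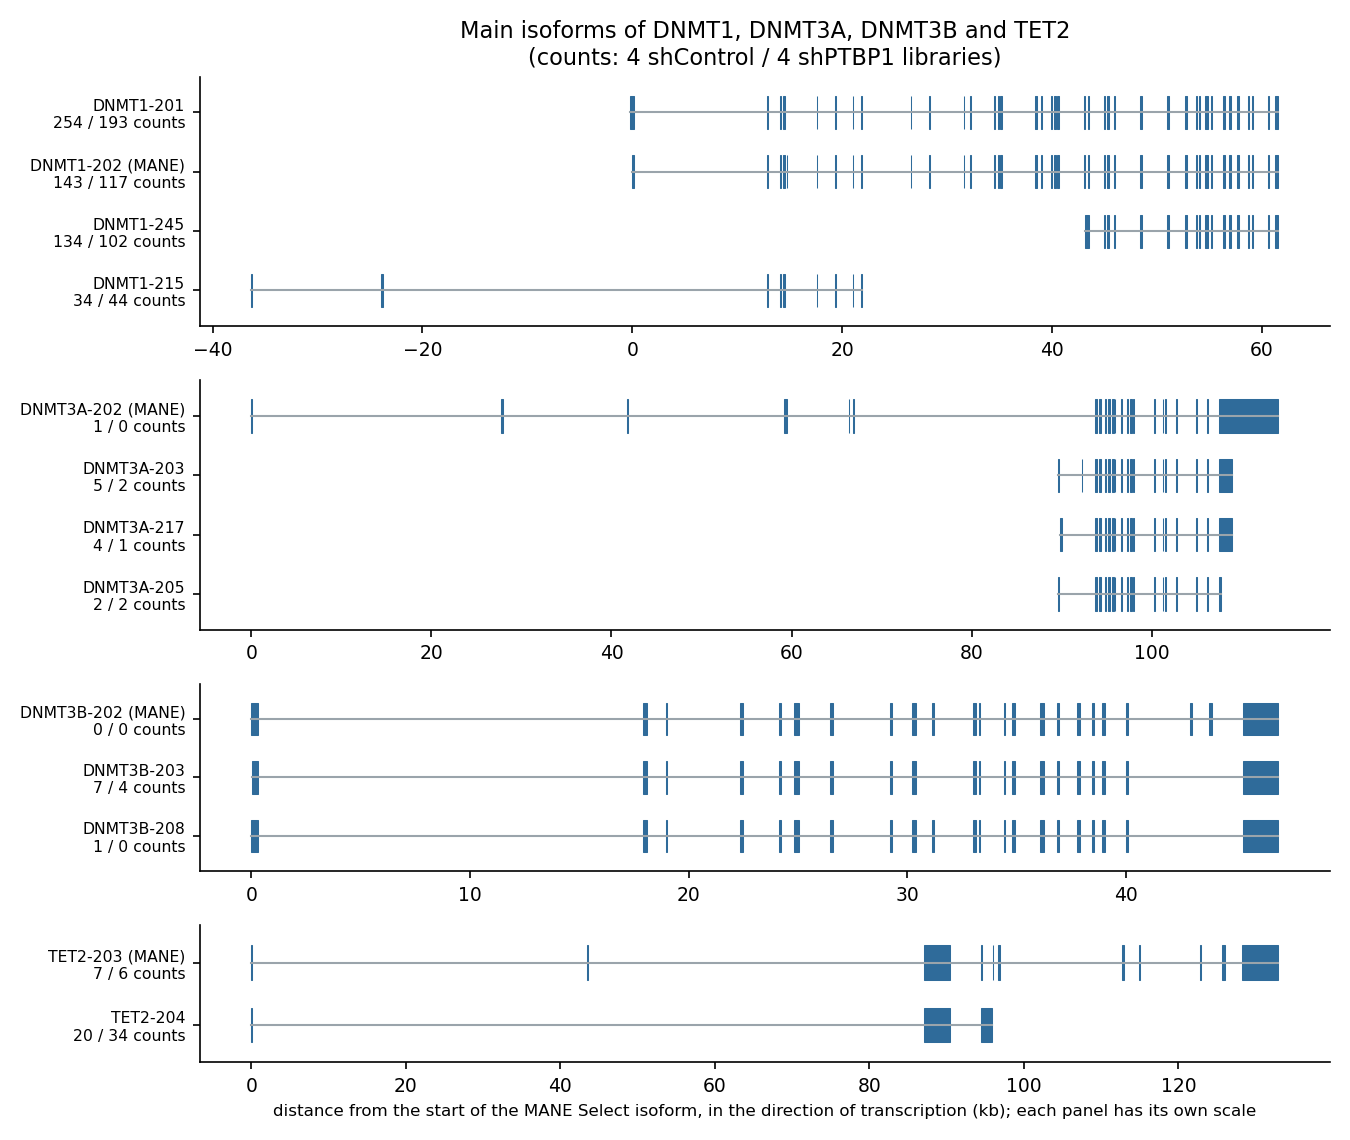
Exons (blue boxes) of the main isoforms read and of the MANE Select isoform, as distance in kb from the start of the latter (the reference isoform of the gene) in the direction of transcription, with the counts summed over 4 shControl and 4 shPTBP1 libraries. DNMT3A counts lie mostly on isoforms with an internal start, and TET2 counts mostly on the 3-exon isoform. DNMT3B counts lie on isoforms that skip internal exons near the 3′ end but keep the last exon.

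DNMT1 counts were spread over 22 of 52 annotated isoforms. The most abundant, DNMT1-201 (ENST00000340748.8), held 40.1, 40.8, 36.4 and 36.6% of the DNMT1 counts in shPTBP1 replicates 1 to 4 and 44.9, 47.9, 34.6 and 38.2% in shControl replicates 1 to 4. The shPTBP1 libraries lay within the range of the shControl libraries (38.5 ± 2.32% against 41.4 ± 6.09%, SD, n = 4 each). The MANE Select isoform DNMT1-202 held 23.7 ± 1.47% against 23.7 ± 3.07%, and encodes 1632 codons where DNMT1-201 encodes 1616. It differs from DNMT1-201 only in a coding exon of 48 bases near the 5′ end and in the outer end of the first exon. Reads that do not reach these parts cannot be told apart between DNMT1-201 and DNMT1-202. DNMT1-245, annotated as retained intron, which begins in an intron and holds the last 18 exons, had 20.02 ± 3.91% against 22.5 ± 4.74%. Of the 4 isoforms of DNMT1 and IDH1 with shares large enough for an exact permutation test, the lowest adjusted p was 0.857.

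DNMT1-215 is a short isoform of 841 bases, whose first exon lies inside the first exon of the neighbouring receptor gene S1PR2, 36333 bases upstream of the DNMT1-202 start. Its counts were 10, 14, 9 and 11 after shPTBP1 and 7, 12, 6 and 9 in shControl. As a share of DNMT1 these were 9.18 ± 2.60% against 5.60 ± 1.52% (SD, n = 4 each), and the groups overlapped. S1PR2 itself was listed at 41, 47, 49 and 0 counts after shPTBP1 and 56, 0, 0 and 56 in shControl, either high or absent in both groups. Reads that cover only the shared exon cannot be told apart between these genes.

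By annotated class, isoforms that are marked for nonsense-mediated decay took 5.63 ± 1.65% of DNMT1 counts after shPTBP1 and 4.19 ± 1.23% in shControl (SD, n = 4 each). Those marked as retained intron took 21.5 ± 2.97% against 23.6 ± 4.66%. DNMT1-245 held 102 of these 109 counts after shPTBP1 and 134 of 141 in shControl. Reads that reach neither its intronic start nor its 9 extra bases in a later exon could come from DNMT1-201 as well. Over the 6 classes of DNMT1 and IDH1 compared, the lowest adjusted p was 0.617 (exact two-sided permutation test).

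DNMT3A counts were assigned mostly to isoforms with an internal start. These isoforms share their later exons with the MANE isoform, so a read that stops short of the first exons could come from either. Use of the internal start was not tested. DNMT3A-203, DNMT3A-205 and DNMT3A-217 held 16 of the 18 counts (88.9%, exact binomial 95% interval 65.3 to 98.6%), 5 of 6 after shPTBP1 and 11 of 12 in shControl. The first 2 of these begin 89614 bases downstream of the MANE isoform DNMT3A-202 and encode 723 and 689 codons where it encodes 912. DNMT3A-202 itself had 1 count. RefSeq (GRCh38.p14) places a start 4 bases from that of DNMT3A-203, and the 250 bases before it (chr2:25252316-25252565, minus strand) are shown 5′ to 3′ with each CpG in capitals, because most DNMT3A counts fell on isoforms that begin at or near it.
DNMT3A internal promoter, 250 bases before the start: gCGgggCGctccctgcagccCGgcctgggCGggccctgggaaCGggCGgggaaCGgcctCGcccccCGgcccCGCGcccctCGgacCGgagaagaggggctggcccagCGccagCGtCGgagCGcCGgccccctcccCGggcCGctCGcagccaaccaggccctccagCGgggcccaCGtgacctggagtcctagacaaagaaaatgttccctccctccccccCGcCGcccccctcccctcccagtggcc
These bases hold 25 CpG. With the 50 bases after the start the number is 28, against a median of 14 over all RefSeq promoters, and 73.8% of promoters hold fewer. No methylation was measured in these samples.

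DNMT3B was read almost only as DNMT3B-203 (ENST00000348286.6), with 11 of 12 counts (91.7%, exact binomial 95% interval 61.5 to 99.8%). The MANE isoform DNMT3B-202 had 0. DNMT3B-203 encodes 770 codons where DNMT3B-202 encodes 853, because it lacks 3 coding exons of 60, 70 and 119 bases. They are shown from the plus strand of chromosome 20 (hg38, at 32793536 to 32793595, 32805338 to 32805407 and 32806209 to 32806327), since they set DNMT3B-203 apart from the full isoform.
DNMT3B exon of 60 bases: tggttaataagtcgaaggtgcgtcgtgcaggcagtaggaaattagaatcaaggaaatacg
DNMT3B exon of 70 bases: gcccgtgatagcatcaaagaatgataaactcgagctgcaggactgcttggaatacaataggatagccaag
DNMT3B exon of 119 bases: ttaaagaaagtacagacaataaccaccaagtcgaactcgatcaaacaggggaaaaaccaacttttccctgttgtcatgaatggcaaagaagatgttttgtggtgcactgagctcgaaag
The exons of 70 and 119 bases encode part of the catalytic domain, and isoforms without them are known to lack methyltransferase activity of their own. The remaining count fell on DNMT3B-208, which has the exon of 60 bases but not the others. Thus 0 of 12 counts carried the last 2 of these exons, which allows a share of up to 26.5% (exact binomial 95% interval).

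TET2 counts were assigned mainly to TET2-204 (ENST00000413648.2), an isoform of 3 exons and 4973 bases, rather than to the full TET2-203 of 11 exons and 9589 bases. Most of TET2-204 lies in exons shared with TET2-203. Reads that stay within the shared part cannot be told apart between these isoforms. TET2-204 had 8, 11, 11 and 4 counts in shPTBP1 replicates 1 to 4 and 11, 4, 0 and 5 in shControl replicates 1 to 4. The library without any was shControl replicate 3, in which all 3 counts of TET2 fell on TET2-203. The full isoform had 6 counts after shPTBP1 and 7 in shControl. Pooled, TET2-204 held 34 of 40 counts after shPTBP1 (85.0%, exact binomial 95% interval 70.2 to 94.3%) and 20 of 28 in shControl (71.4%, 51.3 to 86.8%), and these intervals overlap. It encodes 1167 of the 2002 codons of the full protein, whose catalytic domain lies toward the C-terminus. For TET1 only 1 isoform is annotated, TET1-201, so its counts could fall on no other. TET3 was read only as its full isoform TET3-202, 1 of 4 annotated.

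UHRF1 was divided over 4 isoforms, of which UHRF1-208 was the largest with 23 counts after shPTBP1 and 30 in shControl. UHRF1-203, which also encodes 793 codons, had 5 against 11. UHRF1-205, which begins 71 bases upstream of the MANE isoform UHRF1-208 and encodes 857 codons instead of 793, held 28.6, 35.7, 37.5 and 55.6% of the UHRF1 counts in shPTBP1 replicates 1 to 4 and 14.3, 21.4, 11.1 and 0% in shControl replicates 1 to 4. Every shPTBP1 library lay above every shControl library. These shares rest on 2, 5, 6 and 5 counts after shPTBP1 and on 2, 3, 1 and 0 in shControl, so that 18 of 46 counts stood against 6 of 48, and they were too few for the test of usage. Shares did not overlap between the groups for 6.84% of isoforms with a mean share of at least 10% in either group, and for 3.63% of those in genes with a mean under 20 counts. UHRF1-205 was singled out after its values were seen, and its difference was not tested. It shares every splice junction with UHRF1-208 and differs only at the outer ends of the first and last exons. Reads that do not reach these ends cannot be told apart between these isoforms.

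IDH1 was nearly all 1 isoform. IDH1-201 (ENST00000345146.7) held 91.0 ± 0.862% after shPTBP1 and 90.6 ± 1.57% in shControl (SD, n = 4 each). IDH1-203 held 8.39 ± 0.796% against 8.68 ± 1.395%, and differs in a non-coding first exon of 292 bases. Both encode the same number of codons, 414.

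Within the groups, 3 of the genes were abundant enough to look for genes that varied alike (log2 CPM after the group means were removed, over the 8 libraries, among 4802 genes). The closest to DNMT1 were LRRC41, EEF2 and USP5 (r = 0.97, 0.95 and 0.94). For TET3 they were MATR3, ANKZF1 and ARMC8 (r = 0.93, 0.92 and 0.92), and for IDH1 they were SSB, MDM2 and IFRD1 (r = 0.96 each). With 8 libraries and 4802 genes to choose from, these values only describe the libraries.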

How the data were processed

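Total RNA of 4 shPTBP1 and 4 shControl cultures was sequenced as nanopore cDNA. Reads were mapped to hg38 (minimap2), filtered on mapping quality and assigned to transcripts with StringTie, and the authors deposited whole-number transcript counts without normalization. A second deposited table, named TPM, holds CPM, the count over the library total with no length correction (largest difference 4.998e-07). Tool versions and the annotation used are not given in the sources used here.

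By Ensembl identifier, 252562 of 254070 transcripts matched GENCODE version 44 on GRCh38 and were summed per gene. The others held 0.0876 to 0.115% of counts. Counts were TMM-normalized and tested with edgeR 4.0.16 (filterByExpr, minimum count 10, group as the only term), and isoforms with its diffSpliceDGE. Single values were compared by exact two-sided permutation tests of 4 against 4 libraries, which cannot go below p = 0.0286. Scripts were tested on simulated data. Alternatives were DESeq2 1.42.0, limma 3.58.1 (voom, trend, diffSplice), other size factors and filters, the replicate number as a block, and leaving out each library. Intervals on pooled counts or shares take in counting error alone, although PCR copies of a cDNA are not independent. Squared differences between replicates were 2.12 to 3.94 times counting error, so that none is a copy. Numbers of replicates were not treated as pairs, since deviations of same-numbered libraries correlated between -0.0328 and 0.00889 across genes.

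The genes and lists were chosen with earlier results of these data known. The text names all 8 genes, called genes and the most abundant gene of each pathway list, and isoforms with a mean share of at least 10%. Others were named after their values were seen. Some details are not reported here.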

Additional observations from a re-analysis of the deposited data

Results flagged for a closer look

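TET3 was at 52.2 CPM in shControl replicate 1, while the other 3 shControl libraries lay between 25.0 and 28.7 CPM, so that the gap to the nearest library was 0.867 of the whole range. In shPTBP1, replicate 1 was also the highest for TET3, at 39.9 CPM against 18.4 to 22.4 CPM, but was not flagged. The 1 library flagged among 18 sets of 4 values examined was shControl replicate 1.
By chance, about 1 in 20 such sets would stand out in this way.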

How the results depend on the processing

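Over all settings tried, 0 of the 8 genes were called, and 0 of the 6 isoforms tested in each. Only members that passed the filter of a setting could be called. The filter at a mean of at least 50 counts kept DNMT1 and IDH1 alone. DESeq2 called 154 genes lower instead of 242 and gave no adjusted p for TET2 and UHRF1. Leaving out 1 library gave 107 to 190 genes lower and 77 to 168 higher, with the fewest without shPTBP1 replicate 3. The log2 fold change then ranged from -0.42 to -0.17 for DNMT1, from -0.67 to -0.07 for TET3, from 0.30 to 0.99 for TET2 and from 0.04 to 0.19 for IDH1. UHRF1 ranged from -0.24 to 0.15, and changed sign in 4 cases, to 0.15 and 0.07 without shPTBP1 replicate 1 and 4, and to 0.03 and 0.04 without shControl replicate 1 and 2. With the replicate block, 186 genes were lower and 137 higher, and DNMT1 was at -0.27 (edgeR adjusted p = 0.192); the block changed no call of the 8 genes. The cause of these differences was not tested. Depth limits DNMT3A, DNMT3B and TET1, which had at most 8 counts in a library.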
